A study of Mus musculus with 2 samples.

Results

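Markers of GABAergic interneurons were examined for peaks of FLAG-tagged PARIS in the mouse hippocampus. The 10 genes were Pvalb, Sst, Vip, Npy, Cck, Lhx6, Nkx2-1, Dlx1, Dlx2 and Dlx5, taken as genes of cells in which a CamK promoter should be silent. A peak belonged to a gene when the authors' annotation table gave it that symbol, which selected 46 of 99782 annotated peaks. All 10 genes had at least 1, as did 15565 of the 21938 protein-coding genes considered here. The series holds 2 CUT&Tag libraries from hippocampal tissue of C57BL/6J mice of the CamK-PARIS genotype: 1 for the FLAG tag, from the anti-FLAG antibody, and 1 from control IgG. CUT&Tag uses an antibody to bring a transposase to chromatin, so that sequenced fragments pile up where the antibody's target sits. Both libraries carry the same genotype, and no library without the tagged protein was analysed here. The labels do not say which CamK promoter the name stands for, and give neither age nor sex nor the number of animals. Nuclei came from dissociated tissue with no sorting step named, so a peak cannot be traced to a cell type, and a peak says nothing of whether a gene is expressed. With 1 library per antibody there is no replicate error, no value below was tested, and intervals cover counting error only.

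PARIS is a zinc-finger repressor of transcription, known for its repression of the coactivator gene Ppargc1a. Promoters of the CamK family used in transgenic mice drive expression mainly in excitatory forebrain neurons. Interneurons of the hippocampus are inhibitory cells that arise in the ganglionic eminences of the embryo, where Dlx1, Dlx2 and Dlx5 encode homeodomain factors of the GABAergic lineage. Nkx2-1 specifies cells of the medial eminence and is switched off in most cortical interneurons as they migrate, and Lhx6 acts downstream of it and stays on. Pvalb encodes the calcium buffer parvalbumin of fast-spiking basket cells, and Sst, Vip, Npy and Cck encode peptides that mark other classes. Cck and Npy are not confined to interneurons, and Cck is also made by pyramidal cells.

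Peaks lay within 1 kb of an annotated transcription start site, in some cases an internal one, at all 5 transcription factor genes and at 2 of the other 5. A peak whose maximum was within 1 kb of an annotated transcription start site (TSS) was found at 7 of the 10 genes: Dlx1, Dlx2, Dlx5, Lhx6, Nkx2-1, Pvalb and Vip. Over all protein-coding genes the share was 42.5%, and the Wilson 95% interval of the 7 of 10 ran from 39.7% to 89.2%, so the members' share cannot be told from that of all genes at this number. No such peak was listed for Sst, Npy or Cck, whose nearest peaks lay 7528, 9062 and 9240 bp upstream. Within 3 kb the count was again 7, against 51.8% of all genes. Counted from the 5′ end of the gene in GENCODE M21, a peak lay within 1 kb of 5 members (Dlx1, Dlx2, Dlx5, Lhx6 and Vip), and not of Nkx2-1 or Pvalb. The share of all genes by this measure is not given here, so the 2 shares above are no background for it. The split between factor and peptide genes was noticed in these values and is given as a description. Dlx1 and Dlx2 are neighbours and do not count as independent.

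**Figure D1:**
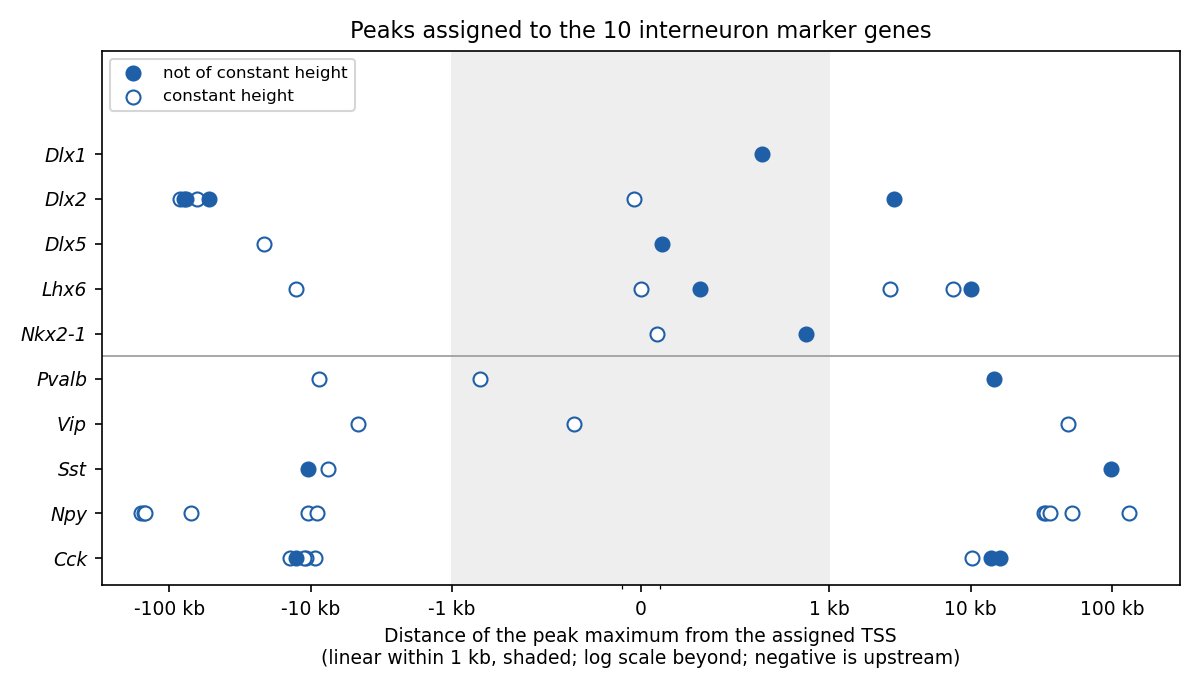
Distance in base pairs from the maximum of each of the 46 assigned peaks to its assigned TSS, 1 row per gene, on a scale that is linear within 1 kb and logarithmic beyond; transcription factor genes are above the line and open symbols are constant-height peaks. The 5 factor genes have at least 1 peak in the shaded range of 1 kb, as do Pvalb and Vip, while Sst, Npy and Cck have none there.

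Many of these peaks were flat. A peak was called constant-height when its total signal reached at least 99% of its maximum signal times its width, which is the shape of a rectangle. This held for 31 of the 46 peaks (67.4%, 53.0 to 79.1) and for 63.3% of all annotated peaks. With constant-height peaks left out, the genes with a peak within 1 kb were Dlx1, Dlx5, Lhx6 and Nkx2-1, or 4 of 10, against 28.8% of all protein-coding genes. Of the 18 peaks at the factor genes 9 were of constant height, and of the 28 at the other genes 22 were. Npy alone gave 11 of those 22. Within 1 kb of a TSS lay 7 of the 18 and 2 of the 28. Over all peaks, 44.5% of those within 1 kb and 66.7% of those farther away were of constant height. The part of distance in the split was not tested.

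Dlx1 (ENSMUSG00000041911, chromosome 2, 71528113 to 71533981, plus strand; all coordinates are on mm10) had 1 assigned peak. It lay at 71528713 to 71529449, was 737 bp wide, reached a maximum signal of 127 and varied in height along its length. Its maximum was 641 bp downstream of the TSS used by the authors, and all 737 bases fell in the 5′ UTR of a GENCODE M21 transcript. RefSeq places the start of Dlx1 at 71529445, which is inside this peak. The 200 bp around the maximum had a GC content of 66.5%.

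Dlx2 (ENSMUSG00000023391, chromosome 2, 71543408 to 71546754, minus strand) had 7 assigned peaks. The one nearest its start lay at 71546788 to 71546971, just upstream: its edge was 34 bp from the gene start, it was 184 bp wide, and it held a constant height of 132. A second peak, at 71542505 to 71543167 with a maximum of 74, lay beyond the 3′ end of Dlx2 in the 9426 bp between Dlx1 and Dlx2, and was not of constant height. That intergenic stretch is known for enhancers active in the embryonic forebrain. The other 5 lay 51869 to 83418 bp upstream, in the 198.9 kb between Dlx2 and Itga6, with maximum signals from 6 to 136, and 3 of them were not of constant height. The peak with a maximum of 6 was among the lowest of the whole list. The whole peak just upstream of the start, chr2:71546788-71546971, is shown for its density of CG dinucleotides; it is the mm10 sequence of the gene's strand, written 5′ to 3′ with CG in capitals, as for the genes that follow.
Dlx2: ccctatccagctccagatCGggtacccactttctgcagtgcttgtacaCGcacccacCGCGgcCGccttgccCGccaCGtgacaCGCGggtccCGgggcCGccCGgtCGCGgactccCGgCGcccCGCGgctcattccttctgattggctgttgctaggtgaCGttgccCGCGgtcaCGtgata

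Dlx5 (ENSMUSG00000029755, chromosome 6, 6877805 to 6882085, minus strand) was the only member whose GENCODE gene start lay inside a peak, 1 of 10, against 20.4% of all protein-coding genes. That peak, at 6881501 to 6882175, had a maximum of 85, below the median of 101 over all peaks, and was not of constant height. It covered 355 bp of coding sequence, 199 bp of 5′ UTR, 31 bp of non-coding exon and 90 bp outside the gene. Its other peak lay 21268 bp upstream with a constant height of 30. Dlx6, the neighbouring homeodomain gene, had 1 peak, with a maximum of 99 at 488 bp from its TSS. Of the 2 peaks in the 9236 bp between Dlx6 and Dlx5, 1 had a maximum of 93 and a constant height and 1 a maximum of 72; the authors assigned both to Dlx6os1, a non-coding RNA antisense to Dlx6. CUT&Tag has no strand, so a peak within overlapping genes belongs to both, as at Dlx1 and its antisense gene Dlx1as. Of the other genes within 10 kb of a member, Metap1d beside Dlx1 had 4 assigned peaks and Sfta3-ps beside Nkx2-1 had 2, none of them within 1 kb of a TSS, and Gm26973 and Gm27953 had 0.

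**Figure D2:**
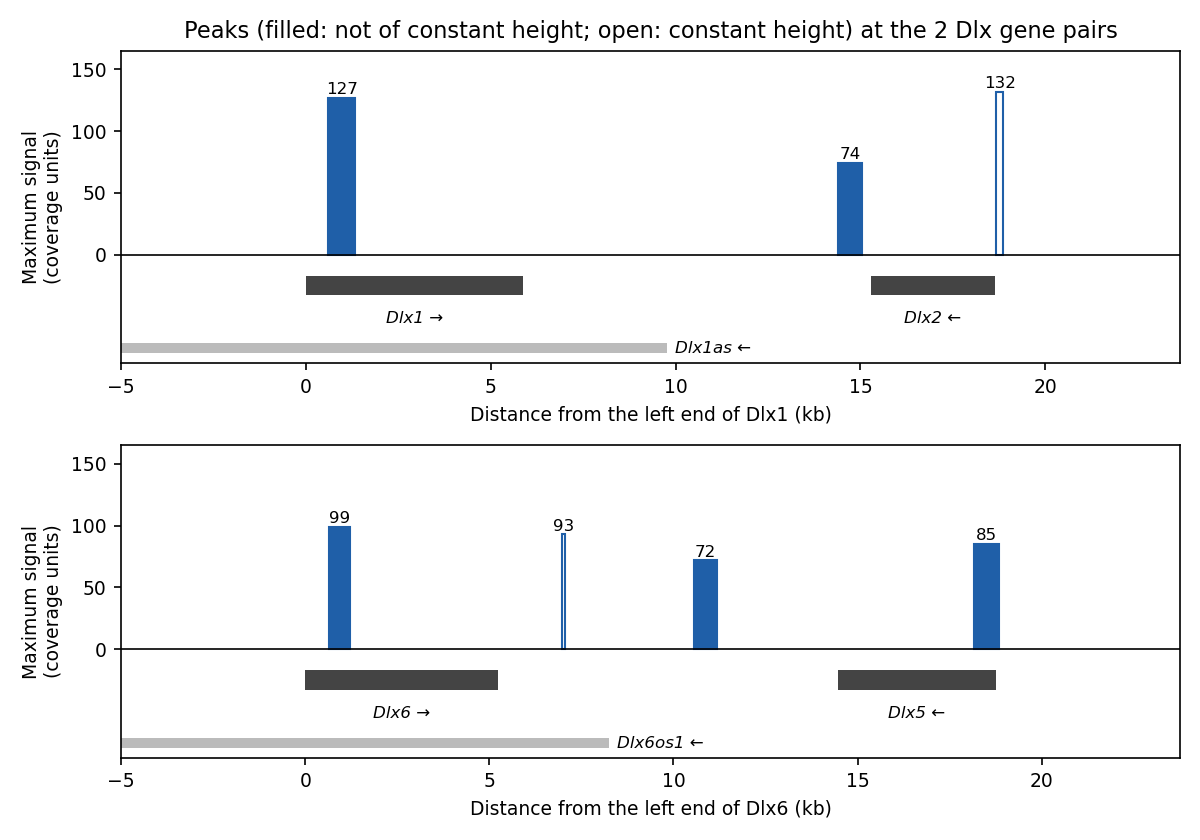
Peaks at the Dlx1 and Dlx2 pair (top) and the Dlx6 and Dlx5 pair (bottom), with maximum signal in coverage units on the vertical axis and distance in kb from the left end of the first gene on the horizontal axis; arrows give the direction of transcription, and open bars are constant-height peaks. Peaks sit at or near the start of each of the 4 genes, with maxima from 85 to 132, and in both stretches between the genes, with maxima from 72 to 93.

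Lhx6 (ENSMUSG00000026890, chromosome 2, 36081953 to 36105408, minus strand), a LIM-homeodomain factor, had 6 assigned peaks, 5 of them inside the gene. A peak at 36104654 to 36104987 overlapped an annotated TSS at distance 0, with a constant height of 49, and held 122 bp of 5′ UTR and 212 bp of intron. A peak at 36102667 to 36103337, 313 bp from another TSS, reached 123 and was not of constant height; it held 122 bp of coding sequence and 549 bp of intron. The remaining peaks inside the gene had maxima of 108, 30 and 95 at distances of 2685, 7468 and 10092 bp. These distances are from internal TSSs, not from the 5′ end of the gene, which is farther away. The sixth, 12578 bp upstream with a maximum of 78, lay in an intron of the neighbouring gene Rbm18. RefSeq gives Lhx6 3 starts, which lay 121, 421 and 594 bp from the nearest peak. Morn5, the neighbour on the other side, had a peak with a maximum of 128 at 124 bp from its TSS. The region of maximum signal of the peak that reached 123, chr2:36103067-36103279, is shown as an intermediate case.
Lhx6: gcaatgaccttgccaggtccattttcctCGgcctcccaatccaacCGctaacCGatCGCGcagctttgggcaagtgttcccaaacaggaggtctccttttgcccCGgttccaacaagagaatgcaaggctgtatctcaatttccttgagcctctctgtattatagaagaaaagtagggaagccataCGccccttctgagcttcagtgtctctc

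Nkx2-1 (ENSMUSG00000001496, chromosome 12, 56531958 to 56536908, minus strand) had 2 peaks, both inside the gene. The peak at 56534492 to 56535020 had a constant height of 64, lay 88 bp from an internal TSS and held 333 bp of coding sequence. The peak at 56533584 to 56534249 reached 159, the highest maximum among the members' peaks near a TSS, and its total signal of 103024 was the highest of all 46. It lay 874 bp from the same TSS, was not of constant height, and held 197 bp of coding sequence and 469 bp of intron. The 5′ end of the gene was 1888 bp from the nearest peak. The surroundings held few peaks: 3 within 100 kb to either side, or 15 per Mb, against a mean of 36.7 per Mb on chromosome 12. The 200 bp around the maximum of the peak nearest the TSS, chr12:56534655-56534854, are shown as the window richest in CG.
Nkx2-1: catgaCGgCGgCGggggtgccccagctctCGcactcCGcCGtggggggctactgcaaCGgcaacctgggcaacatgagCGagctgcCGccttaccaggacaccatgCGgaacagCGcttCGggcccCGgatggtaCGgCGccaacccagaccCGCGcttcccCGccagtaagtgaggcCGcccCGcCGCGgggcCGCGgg

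Pvalb (ENSMUSG00000005716, chromosome 15, 78191114 to 78206400, minus strand) had 3 assigned peaks. The peak nearest to a TSS, at 78205088 to 78205175, was 88 bp wide with a constant height of 156 and lay 852 bp upstream of the TSS the authors assigned, inside an intron of a longer transcript. Downstream of the gene, 14592 bp from that TSS, a peak reached 208, the highest maximum of the 46 and higher than 92.1% of all peaks, and it was not of constant height. The third lay 8664 bp upstream of another TSS of the gene, with a constant height of 45. The region was rich in peaks, with 20 within 100 kb to either side, or 100 per Mb against 42.3 per Mb on the chromosome.

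Vip (ENSMUSG00000019772, chromosome 10, 5639218 to 5647617, plus strand) had 3 peaks, all of constant height. The one at 5638602 to 5638863, 356 bp upstream of the TSS, had a height of 132. The others had 92 at 4633 bp upstream of the same TSS and 97 at 48327 bp downstream of another. None touched the gene itself. The whole peak upstream of the start, chr10:5638602-5638863, is shown as the one poorest in G and C among the members' peaks near a TSS.
Vip: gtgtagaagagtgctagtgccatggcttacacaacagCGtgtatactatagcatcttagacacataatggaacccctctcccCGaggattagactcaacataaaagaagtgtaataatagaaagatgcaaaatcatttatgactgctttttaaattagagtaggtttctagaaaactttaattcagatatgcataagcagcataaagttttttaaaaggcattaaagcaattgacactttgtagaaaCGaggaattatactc

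The sequences printed differ in composition. The Dlx2 peak held 22 CG dinucleotides in 184 bp at a GC content of 67.9%, and the Nkx2-1 window 24 in 200 bp at 73%. The Lhx6 region held 7 in 213 bp at 51.2%. The Vip peak held 3 in 262 bp at 34.4%, the lowest of the 4. Over the 9 members' peaks within 1 kb of a TSS, the 200 bp around the maximum had a median GC content of 59.5% (47.5 to 66.5), against 57% over all peaks within 1 kb. For the 37 members' peaks farther away the median was 47.5% (45 to 50.5), against 48%.

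Sst (ENSMUSG00000004366, chromosome 16, 23889573 to 23890958, minus strand) had 3 distal intergenic peaks and none over the gene. Those upstream had maxima of 64 at 7528 bp and 186 at 10458 bp. The one downstream had 163 at 98014 bp. The 2 highest were not of constant height, so Sst had shaped peaks but only at a distance.

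Npy (ENSMUSG00000029819, chromosome 6, 49822710 to 49829507, plus strand) had the most assigned peaks, 11, and every one was of constant height. They were spread over 290.5 kb of a gene-poor stretch, with no other protein-coding gene for 353.2 kb to the left (Stk31) and 280.7 kb to the right (Mpp6). Only 2 lay within 20 kb of the TSS. Maximum signal ranged from 33 to 118, and 1 of the 11 exceeded the median of 101 over all peaks. The local density was 35 peaks per Mb within 100 kb, beside a mean of 36.1 on the chromosome.

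Cck (ENSMUSG00000032532, chromosome 9, 121489824 to 121495694, minus strand) had 8 peaks in 2 groups around an empty gene. The upstream group had 5 peaks, 9240 to 13994 bp from the TSS, with maxima from 39 to 128, of which 1 was not of constant height. The downstream group had 3 peaks, 10232 to 16123 bp from another annotated TSS of the gene, an internal one. Their maxima ran from 37 to 122, and 2 were not of constant height. The surroundings held 100 peaks per Mb within 100 kb against 46.5 on the chromosome. Peaks were thus frequent around Cck, while its start lay 9239 bp from the nearest.

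Maximum signal at the members was below that of all peaks at the median, but not near a TSS. The median maximum over the 46 peaks was 85.5 (95% interval from order statistics 58 to 108), against 101 over all peaks, and 17 of the 46 were above that value. The interval includes 101. It and those below treat peaks as independent, though peaks of 1 gene are not. Npy alone gave 11 of the 46 peaks, with a median maximum of 53. No member peak exceeded 208, where the list as a whole reached 2395. Near a TSS the 9 members' peaks had a median of 127 (64 to 156), against 116 over all peaks within 1 kb. For the 37 farther peaks the median was 78 (53 to 97), against 99 (99 to 99) for all such peaks. The authors placed 31 of the 46 in distal intergenic sequence (67.4%), against 31.9% of all peaks, 11 in promoters within 3 kb (23.9%, 13.9 to 37.9), against 24.6%, and 3 in introns (6.52%), against 38.0%. The members are short genes, with a median length of 5.87 kb against 17.4 kb over all protein-coding genes. The part of gene length in these shares was not tested.

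**Figure D3:**
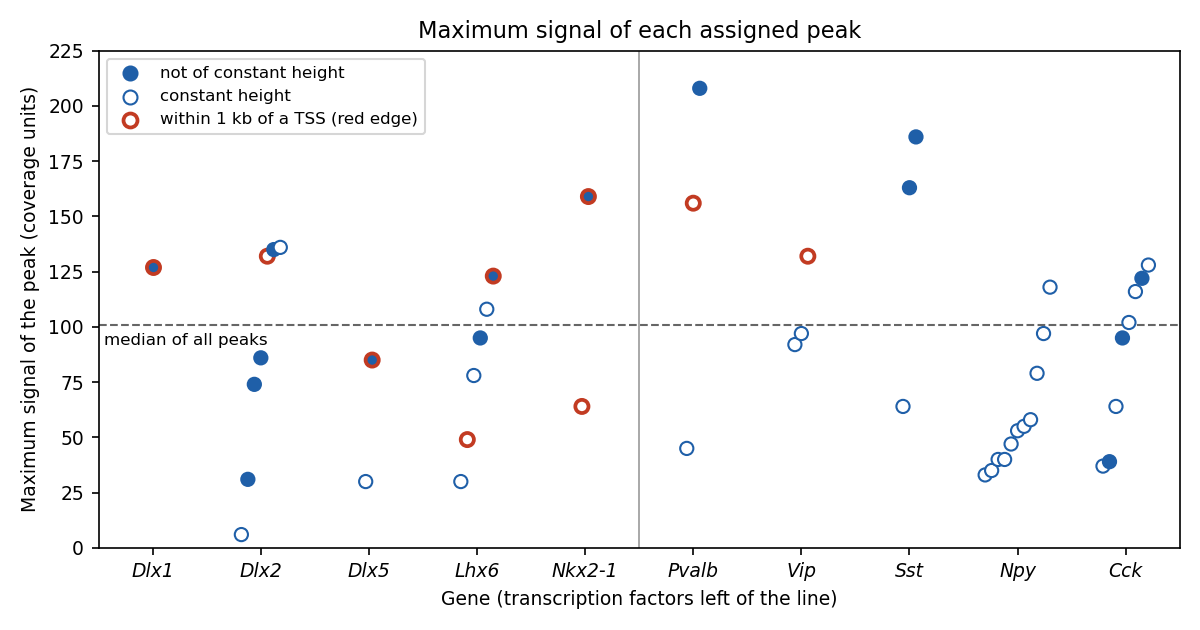
Maximum signal in coverage units of each assigned peak by gene, with red edges for peaks within 1 kb of a TSS, open symbols for constant-height peaks and a dashed line at 101, the median of all peaks. Peaks near a TSS range from 49 (Lhx6) to 159 (Nkx2-1), and the 11 Npy peaks are all open, with 1 above the line.

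The GC content of promoters moved with the presence of a peak over all genes. Promoters were RefSeq windows from 250 bp before to 50 bp after a start (GRCm38.p6), and each gene was given its window of highest GC content. A peak within 1 kb was listed for 17.8% of protein-coding genes in the lowest tertile of promoter GC content, 49.9% in the middle tertile and 65.3% in the highest. Among the 9 members with a RefSeq window, 4 of 5 in the highest tertile had a peak (Pvalb, Lhx6, Dlx1 and Dlx2, but not Npy at 68%). In the middle tertile Nkx2-1 (53.7%) had one and Cck (59.3%) had none. The Nkx2-1 peaks lay near an internal TSS, and the RefSeq start of that window was 1888 bp from the nearest peak. In the lowest tertile Vip (41.7%) had one and Sst (50.3%) had none. The part of GC content in the members' count was not tested.

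The insulin response sequence, reported as a binding element of PARIS, was searched as TATTTTT or TATTTTG on either strand; both words share their first 6 letters. It was present in the 200 bp around the maximum of 4 of the 46 peaks (8.7%, 3.43 to 20.3), against 9.97% of all peaks. With 400 bp it was present at 7 of the 46 (15.2%), against 19.3% of all peaks. Searched over the whole peak it was in 4 (8.7%), against 17.7% of all peaks, a value inside the members' interval. These were not the same 4 peaks: they belonged to Lhx6 (maximum 78), Dlx2 (86 and 6) and Dlx5 (30). None of the 9 peaks within 1 kb of a TSS held it, which allows a share of up to 33.3% by the limit of 3 counts of the total (29.9% by the Wilson interval), and 5.41% of all such peaks did. The 4 peaks with the word in the 200 bp window belonged to Sst (maximum 186), Npy (118), Dlx5 (30) and Dlx2 (6). Both heights above and heights far below the median thus occurred. In the Sst and Npy peaks the word lay in the window but outside the peak. Of the 12 RefSeq promoter windows of the members 2 held a match, 1 of Pvalb and that of Sst, against 9.23% of all windows of protein-coding genes.

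The sites inside the peaks of Dlx5 (chr6:6903420-6903449 and chr6:6903494-6903523) and Dlx2 (chr2:71630378-71630407) are shown because they are the only matches that lay both near the maximum and within a member's peak. Each is written 5′ to 3′ on the strand that reads the word, which is in capitals.
Dlx5, first site: tctatttctagTATTTTTctttgacttcct
Dlx5, second site: ttttaaagaggTATTTTTgactggacacag
Dlx2: ttatttgcatttTATTTTGgcctttttcct
Both peaks were of constant height and lay far upstream, at 21268 and 83418 bp.

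A longer list of interneuron genes gave a similar count. Of 28 other genes of GABAergic interneurons, 17 had a peak within 1 kb of a TSS (60.7%, 42.4 to 76.4), and 10 when constant-height peaks were left out. High maxima near a TSS included those of Kcnc1 (233) and Kcnc2 (178), potassium channels of fast-spiking cells. The 11 without one included Erbb4, Calb1, Calb2, Chrm2, Ndnf, Npas1, Nr2f2, Crhbp and the peptide genes Tac1 and Pnoc, and Chrm2 had no assigned peak at all. Genes for making and packaging GABA, named after their values were seen, each had one: Gad1 with a maximum of 162, Gad2 with 100 and the vesicular transporter Slc32a1 with 128. The Gad1 peak of 162 lay inside the gene, near an internal TSS and far from the 5′ end. The Slc32a1 peak was of constant height and lay 816 bp downstream of its TSS. Over the members the median of the highest peak near a TSS was 132, over the longer list 136 and over all protein-coding genes 135.

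For cells where a CamK promoter is active, 12 genes of excitatory hippocampal neurons were counted. A peak within 1 kb was listed for 7 of them (58.3%, 32.0 to 80.7), and for 6 without constant-height peaks. The highest maxima were those of Camk2a (300), the kinase subunit after which such promoters are named, Slc17a7 (228), the vesicular glutamate transporter, and Neurod2 (176), a factor of excitatory neurons. The interval of the 12 genes overlaps that of the members, so the lists are not told apart by this count. Within 3 kb the count of excitatory genes rose to 11 of 12, with Neurod1, Tbr1, Emx1 and Zbtb20 added, while no member was added. The nearest peak of Neurod1 lay at 1001 bp, just past the limit of 1 kb. The longer interneuron list rose from 17 to 19 of 28, and the 23 non-neuronal markers described below from 8 to 13. The share of all protein-coding genes within 3 kb was 51.8%. Gene starts were a median of 86 bp from the nearest peak for the excitatory genes, 912.5 bp for the members and 3138.5 bp for all protein-coding genes.

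Of 23 markers of oligodendrocytes, astrocytes and microglia, 8 had a peak within 1 kb (34.8%, 18.8 to 55.1), against 42.5% of all protein-coding genes. Without constant-height peaks 2 did (8.7%), against 28.8%. The highest maxima were those of Mbp (157), a protein of myelin, and of the astrocyte gene Aldh1l1 and the microglial receptor gene Trem2 (both 156). The Aldh1l1 peak was of constant height and lay inside the gene, far from its 5′ end. By cell type, 1 of 8 oligodendrocyte, 3 of 7 astrocyte and 4 of 8 microglia genes had a peak. Without constant-height peaks the counts were 1, 0 and 1. Peaks near a TSS were thus listed for genes of each of these cell types, and the intervals of the lists overlap.

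**Figure D4:**
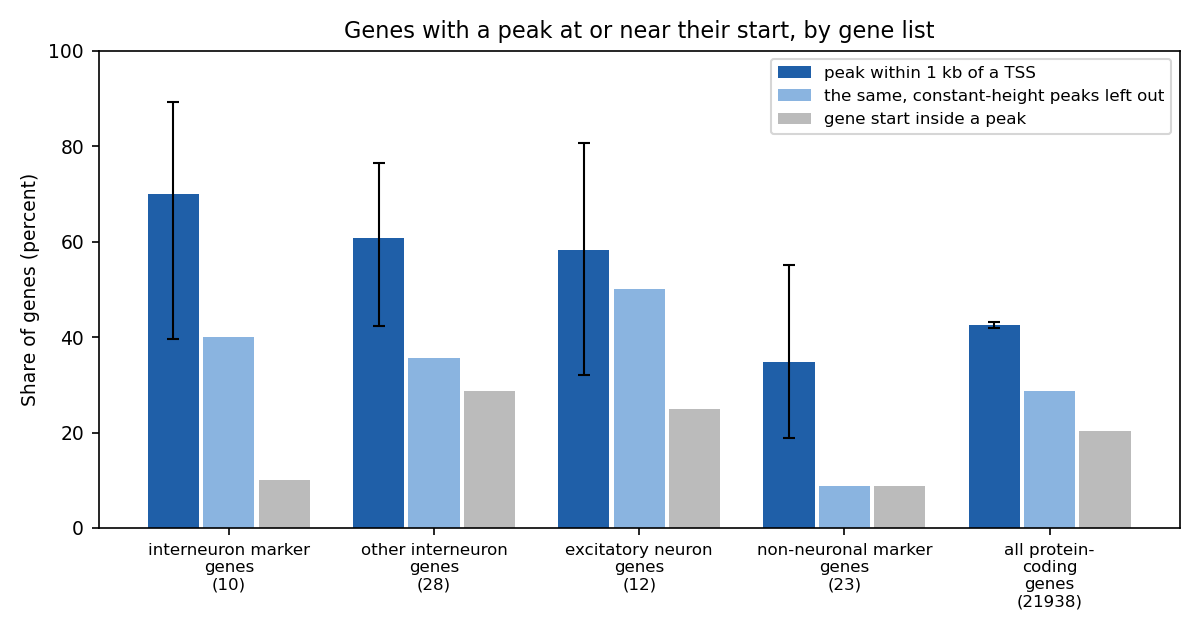
Share of genes in percent with a peak within 1 kb of a TSS (dark, with Wilson 95% intervals), with one that is not of constant height (light) and with the gene start inside a peak (grey), for the 4 gene lists and all protein-coding genes, with the number of genes in brackets. The dark bars stand at 70% for the members, 60.7%, 58.3% and 34.8% for the other lists and 42.5% for all genes, and the intervals of the 4 lists overlap.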

How the data were processed

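Per the labels' protocols, reads were aligned to mm10 with Bowtie2, low-quality and duplicate reads were removed, and peaks were called by the authors with SEACR against the IgG library. Versions and SEACR settings are not given in the sources used here. The deposited peak list holds total and maximum signal (coverage, with no scaling stated) per peak, and a deposited table gives each peak's gene and distance to a TSS. The depth of both libraries is unknown, and no IgG file was analysed here. Peaks were joined to their annotation and counted per gene with Python 3.11.15, pandas 2.3.3, scipy 1.17.1 and pysam 0.24.0. Gene starts and structure came from GENCODE M21 (21938 protein-coding genes on chromosomes 1 to 19, X and Y), and sequences and RefSeq promoters from GRCm38.p6, the same build as mm10. Shares carry Wilson 95% intervals and medians order-statistic 95% intervals. The calculation of distances, counts and constant height was tried on simulated peaks with known answers. The authors' assignment of peaks to genes was not tested. All 10 members are named, with neighbours within 10 kb and the 3 genes per list with the highest peak near a TSS; some genes of the longer interneuron list are counted but not reported here by name. The members, lists and the measure of constant height were chosen with earlier results of these data known.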

Additional observations from a re-analysis of the deposited data

How the results depend on the processing

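The 11 results were recomputed under 63 alternatives; 37 left a share or median within its counting interval or a count within 1.5 times its value, and 26 moved it. Stricter sets hold fewer peaks by construction, and other causes were not tested. For the sets chosen by maximum or total signal, shares over all peaks and all genes are not given here. The values of the lists in those sets thus have no background. Taking RefSeq starts was chosen after seeing the data and put 1 start inside a peak, that of Dlx1. Without constant-height peaks, the members had 15 peaks, 4 genes with a peak within 1 kb and a median maximum of 122, and the other interneuron and non-neuronal lists had 10 and 2 such genes. Among peaks above the median maximum, the members had 17 peaks, 0 over a gene start, 52.9% of constant height, 41.2% in promoters and a median maximum of 132. In the top 10% by total signal they had 5 peaks, 3 genes with a peak within 1 kb, 0 over a gene start, 0% of constant height, 60% in promoters, a median maximum of 135 and 0% with the motif, and the other interneuron, excitatory and non-neuronal lists had 4, 3 and 1 genes. Within 3 kb the excitatory and non-neuronal counts were 11 and 13, and within 500 bp the non-neuronal count was 5, as it was for any peak within 1 kb of the gene start. Any peak over the members' genes or 10 kb around them gave 23 peaks, and a gene start within 200 bp of a peak 2 genes (Dlx5 and Dlx2). The constant-height share without constant-height peaks has no value. Precision is limited by 46 peaks and 1 library.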
